A study of Rattus norvegicus with 30 samples.

Results

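The 8 genes described here are immediate early genes, taken by their Ensembl identifiers from the 26404 genes of the count tables: Fos (ENSRNOG00000008015), Egr1 (ENSRNOG00000019422), Arc (ENSRNOG00000043465), Junb (ENSRNOG00000042838), Jun (ENSRNOG00000026293), Nr4a1 (ENSRNOG00000007607), Dusp1 (ENSRNOG00000003977) and Egr2 (ENSRNOG00000000640). All of them were found in the tables of the perilesional cortex, thalamus and hippocampus. The genes were named by the list that gave the identifiers, since the tables hold no symbols. mRNA was sequenced from 5 adult male Sprague-Dawley rats with TBI (rats 6 to 10) and from 5 sham-operated rats (rats 1 to 5), killed at 3 months after the operation. TBI was a lateral fluid-percussion injury, a brief pressure pulse onto the intact dura through an opening over the left parietal cortex. The sham-operated rats had the anaesthesia and the craniectomy but no impact. Every rat gave all 3 brain areas, so there were 30 libraries. The area called hippocampus was dissected as the dentate gyrus with part of CA3, whereas the sample titles and tissue labels call it hippocampus. The comparison asks whether this group of genes differed in level at a chronic time after the injury, and whether its members rose and fell together from rat to rat.

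Immediate early genes are transcribed within minutes of a stimulus, without new protein synthesis, and their short-lived mRNAs fall again soon afterwards. In neurons the stimulus is synaptic activity and calcium entry, which act through SRF at CArG boxes and through CREB at cAMP response elements (CRE) in the promoters. Their mRNA is therefore widely used as a marker of recently active neurons, although glia can express several of them after injury. Fos, Junb and Jun encode subunits of the transcription factor AP-1, Egr1 and Egr2 encode zinc-finger transcription factors, and Nr4a1 encodes an orphan nuclear receptor. Arc encodes a postsynaptic protein that promotes AMPA receptor endocytosis, and Dusp1 encodes a nuclear phosphatase that switches off MAP kinases. In whole tissue, fewer cells of a type and less RNA per cell cannot be told apart.

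Promoters of 5 of the 8 members were matched by symbol in the RefSeq table (build GRCr8, 250 bases before to 50 bases after the gene start). Those of 4 members are shown for the sites, named above, that a search found in them. Capitals mark the CArG box, the CRE (TGACGTCA) and its short form (TGACG), each searched on both strands; the short form also lies within the full CRE and was added after the sequences had been read. The promoter of Egr1 lies at chr18:26736828-26737127 (plus strand), that of Egr2 at chr20:21054392-21054691 (minus strand), that of Dusp1 at chr10:17184603-17184902 (plus strand) and that of Nr4a1 at chr7:134259888-134260187 (plus strand).
Egr1: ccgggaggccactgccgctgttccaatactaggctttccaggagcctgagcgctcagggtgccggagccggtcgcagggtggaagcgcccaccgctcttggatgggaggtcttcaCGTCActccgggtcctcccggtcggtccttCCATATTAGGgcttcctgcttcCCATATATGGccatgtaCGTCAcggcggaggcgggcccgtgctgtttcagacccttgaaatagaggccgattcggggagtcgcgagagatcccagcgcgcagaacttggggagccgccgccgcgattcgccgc
Egr2: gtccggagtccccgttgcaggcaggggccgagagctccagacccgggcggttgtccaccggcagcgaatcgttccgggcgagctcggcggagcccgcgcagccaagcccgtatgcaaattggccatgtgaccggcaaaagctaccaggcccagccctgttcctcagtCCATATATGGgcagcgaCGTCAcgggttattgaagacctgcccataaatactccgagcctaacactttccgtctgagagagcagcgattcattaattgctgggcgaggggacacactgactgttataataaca
Dusp1: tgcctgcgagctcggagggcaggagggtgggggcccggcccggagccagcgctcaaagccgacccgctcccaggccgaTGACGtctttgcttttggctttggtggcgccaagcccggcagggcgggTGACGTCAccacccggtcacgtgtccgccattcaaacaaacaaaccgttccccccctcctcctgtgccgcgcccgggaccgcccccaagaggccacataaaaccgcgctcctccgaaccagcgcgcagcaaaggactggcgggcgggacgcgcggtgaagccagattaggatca
Nr4a1: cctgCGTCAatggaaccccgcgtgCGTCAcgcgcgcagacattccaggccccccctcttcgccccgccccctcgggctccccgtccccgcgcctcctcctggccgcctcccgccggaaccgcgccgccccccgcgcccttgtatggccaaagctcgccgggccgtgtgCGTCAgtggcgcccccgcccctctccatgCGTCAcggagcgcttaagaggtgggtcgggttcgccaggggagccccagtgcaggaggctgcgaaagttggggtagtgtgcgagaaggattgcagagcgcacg
The promoter of Egr1 held 2 CArG boxes, which began 105 and 83 bases before the gene start, and that of Egr2 held 1, also beginning 83 bases before it. A CArG box was present in 1.64% of all 33469 promoters of this length. The promoter of Dusp1 held 1 full CRE, beginning 124 bases before the start, which 1.83% of all promoters held. The short form was present in 5 of the 5 matched promoters, 4 times in Nr4a1, 3 times in Dusp1 (2 of these within the full CRE), 2 times in Egr1 and 1 time each in Egr2 and Junb, and in 21.2% of all promoters. The AP-1 site (TGANTCA) and the Egr site (GCGTGGGCG) were found in 0 of the 5, against 7.33% and 0.544% of all promoters. These matches describe letters in the sequence and not binding.

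Depth was between 21992859 and 31799879 counts per library, and every member had at least 117 counts in each cortical library. The 10 genes with the most counts took 14.1% to 29.6% of each cortical library, lowest in TBI rat 6 and highest in sham rat 1, and 6.32% to 10.5% of each thalamic library. In the hippocampus they took 44.1% and 40.9% in sham rats 4 and 5 and at most 16.4% in the other libraries. The study's methods leave some sham hippocampal libraries out for a low alignment rate without naming them. All 10 hippocampal libraries were used here, so those that the study left out are among them. Results are also given without sham rats 4 and 5. The hippocampal libraries of sham rat 3 and TBI rat 8 went against the other areas of these rats. Of 457 genes that differed at least 2-fold between these rats, in 1 direction, in both cortex and thalamus, 42 differed 2-fold the opposite way in the hippocampus and 7 the same way. In the other 24 pairs of a sham and a TBI rat, 0 to 8 genes went the opposite way and 5 to 157 the same way. Hippocampal results are therefore also given without rats 3 and 8. Column names place 7 hippocampal libraries on flow cell FC120, sham rat 5 and TBI rat 10 on FC122, and sham rat 1 on none. Levels below are CPM (counts scaled to library size) on TMM-scaled libraries of 1 area, and they are compared within a gene, not between genes, because transcript lengths of the build used were not analysed here. Marker genes of the areas or of cell types could not be matched to the identifiers, so the labelled tissue was not checked against them.

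In the cortex, Egr1 was lower and Jun was higher after TBI, and the other 6 members did not pass the test. Of the 8 members, 1 was therefore called higher and 1 lower, where 14.2% of all 17185 genes tested were called higher and 11.6% lower (edgeR quasi-likelihood test, Benjamini-Hochberg adjusted p under 0.05). The 2 calls stand near that background. Fold changes on the log2 scale were below 0 in 7 of 8 members, with a median of -0.42 over the members and -0.01 over all genes tested. The members' median was -0.27 without sham rat 4, -0.28 without TBI rat 7 and -0.67 without TBI rat 10.

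Egr1 was measured at 270.0, 233, 229, 349 and 284 CPM in sham rats 1 to 5. It was measured at 103, 108, 108, 164 and 209 CPM in TBI rats 6 to 10. Each TBI library lay below each sham library, and rats 9 and 10 stood closest to the sham range. The log2 fold change was -0.98 (SE 0.21, edgeR adjusted p = 0.00547), and fits that each omitted 1 rat gave -1.18 to -0.86, with 10 of 10 past the threshold. Egr1 was the only member whose cortical groups did not overlap, 1 of 8, where the groups of 18.1% of all genes tested did not overlap.

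Jun was measured at 29.1, 20.9, 25.2, 28 and 21.2 CPM in the sham cortex. It was measured at 25.2, 35.5, 33.6, 37.7 and 37.7 CPM in the TBI cortex. TBI rat 6 lay within the sham range and the other 4 TBI rats lay above it. The log2 fold change was 0.45 (SE 0.12, edgeR adjusted p = 0.0147), between 0.39 and 0.54 with each rat left out and past the threshold in 10 of 10 fits. Jun was thus the member that moved the other way from Egr1 in the same cortical samples.

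**Figure D1:**
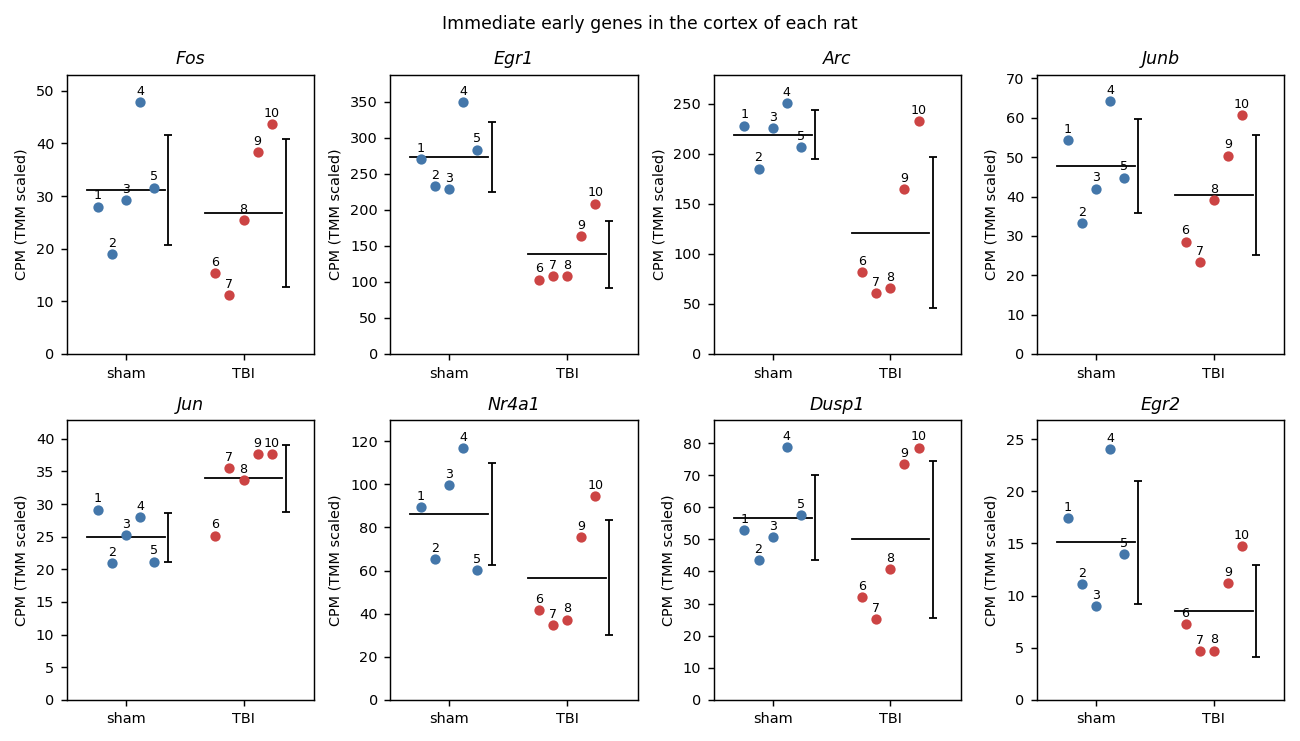
Level of each member in the perilesional cortex, in CPM on TMM-scaled libraries (vertical axis, starting at 0), with 1 point per rat and its number, the group mean as a line and 1 SD as a bar (n = 5 per group). Egr1 is the member with separate groups, at 103 to 209 CPM after TBI and 229 to 349 CPM in sham, and TBI rats 6 and 7 lie below the sham range for 7 of 8 members.

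Arc, Egr2 and Nr4a1 had the next lowest values, with a wide spread between the injured rats. Arc was measured at 228, 185, 226, 251 and 206 CPM in the sham cortex and at 81.9, 60.8, 65.8, 165 and 233 CPM in the TBI cortex. TBI rats 6, 7, 8 and 9 lay below the sham range and rat 10 lay inside it. Its log2 fold change was -0.85 (SE 0.39, edgeR adjusted p = 0.142), and without TBI rat 10 it was -1.23 (adjusted p = 0.0132). Arc passed in 1 of the 10 fits that omitted a rat, which ran to -0.69 (without TBI rat 7) and to an adjusted p of 0.252, and did not pass with DESeq2 (adjusted p = 0.0925), RLE size factors (0.139) or no filter (0.219). In 1 fit of all areas together, Arc was past the threshold (log2 fold change -0.88, adjusted p = 0.0340), but that fit takes the areas of a rat as independent libraries, which they are not.

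Egr2 was measured at 17.4, 11.1, 8.98, 24.1 and 14.0 CPM in the sham cortex and at 7.27, 4.64, 4.71, 11.2 and 14.7 CPM in the TBI cortex. TBI rats 6, 7 and 8 lay below all sham rats, and rats 9 and 10 lay within their range. The log2 fold change was -0.82 (SE 0.39, edgeR adjusted p = 0.157), and -1.11 without TBI rat 10 (adjusted p = 0.0486). Egr2 also passed in 1 of the 10 such fits, with -0.57 without sham rat 4 (adjusted p = 0.319) and -0.67 without TBI rat 7, and DESeq2 gave an adjusted p of 0.115. Nr4a1 was measured at 89.5, 65.3, 99.7, 117 and 60.4 CPM in sham and at 41.7, 34.7, 37.2, 75.6 and 94.6 CPM after TBI, with the same division of the injured rats. Its log2 fold change was -0.60 (SE 0.33, edgeR adjusted p = 0.220).

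Fos, Junb and Dusp1 had the smallest negative fold changes, and their highest TBI libraries reached the sham range. Fos was measured at 28, 19.0, 29.2, 47.8 and 31.6 CPM in the sham cortex and at 15.3, 11.1, 25.4, 38.3 and 43.7 CPM in the TBI cortex. The lowest TBI library, rat 7, was 3.93-fold below the highest, rat 10, against 2.51-fold between the sham libraries. Its log2 fold change of -0.21 (SE 0.41, edgeR adjusted p = 0.739) became 0.01 without sham rat 4. Junb ranged from 33.2 to 64.3 CPM (median 44.8) in sham and from 23.3 to 60.6 CPM (median 39.2) after TBI, with a log2 fold change of -0.24 (SE 0.28, edgeR adjusted p = 0.563). Dusp1 ranged from 43.6 to 78.7 CPM (median 52.9) in sham and from 25.2 to 78.6 CPM (median 40.7) after TBI, with a log2 fold change of -0.18 (SE 0.34, edgeR adjusted p = 0.734). Without TBI rat 10, Junb was at -0.43 and Dusp1 at -0.40, and without TBI rat 7 they were at -0.095 and -0.014.

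Counted over all members, the injured rats differed from each other in the cortex. TBI rats 6 and 7 lay below the whole sham range for 7 of 8 members each, rat 8 for 5, rat 9 for 2 (Egr1 and Arc) and rat 10 for 1 (Egr1). The mean log2 CPM of the members was 0.90, 1.13 and 0.78 below the sham mean in rats 6, 7 and 8, 0.02 below it in rat 9 and 0.25 above it in rat 10. TBI rat 7 was the lowest injured rat for 6 members and TBI rat 10 the highest for 7.

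In the thalamus, Junb was higher after TBI, and the other 6 members tested did not pass the test. This was 1 of 7 members, where 3.77% of all 16605 genes tested were called higher and 1.85% lower. That background of 934 genes was itself unsteady, with 0 called without rat 3, 5, 7 or 8, 2421 without rat 6 and 1950 with DESeq2. Junb was measured at 15, 13.4, 13.7, 14.4 and 16.1 CPM in sham rats 1 to 5. It was measured at 15.7, 19.4, 19.999, 21.9 and 24.7 CPM in TBI rats 6 to 10. TBI rat 6 lay below sham rat 5 and the other 4 TBI rats lay above the sham range. The log2 fold change was 0.48 (SE 0.13, edgeR adjusted p = 0.0493). This value is just past the threshold: without the filter on low counts the adjusted p was 0.0696, with each rat left out it was between 0.00853 and 0.119, and Junb passed in 1 of those 10 fits, the one without TBI rat 6. With DESeq2 the adjusted p was 0.00997. The direction held in each of these fits, with a log2 fold change between 0.41 and 0.57.

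Dusp1 differed 4.03-fold between the highest and the lowest injured rat in the thalamus. It was measured at 79.3, 93.7, 103, 117 and 108 CPM in sham rats 1 to 5 and at 86.0, 31.2, 44.0, 99.6 and 125 CPM in TBI rats 6 to 10. TBI rats 7 and 8 lay far below every other library and rat 10 lay above all of them. Its log2 fold change came to -0.37 (SE 0.30, edgeR adjusted p = 0.481), so the difference between the groups was within the spread. It was -0.62 without TBI rat 10 and -0.17 without TBI rat 7.

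Egr1 was measured at 28.6, 18.8, 25.9, 45.9 and 33.2 CPM in the sham thalamus and at 23.5, 13.2, 22.6, 31.6 and 38.2 CPM in the TBI thalamus, and the groups overlapped over most of their range. Its log2 fold change was -0.24 (SE 0.27, edgeR adjusted p = 0.628), and it ran from -0.42 without TBI rat 10 to -0.047 without sham rat 4. Fos had a log2 fold change of 0.13 (SE 0.29, adjusted p = 0.831) with 10.8 to 28.6 CPM in sham and 14.0 to 31.1 CPM after TBI. Arc had one of -0.19 (SE 0.22, adjusted p = 0.635) and ranged from 8.75 to 19.4 CPM in sham and from 9.35 to 17.9 CPM after TBI. For Arc the fits that omitted a rat ran from -0.35 (TBI rat 6) to -0.058 (sham rat 1). Jun (-0.08, SE 0.12, adjusted p = 0.714) and Nr4a1 (0.07, SE 0.18, adjusted p = 0.856) had the smallest log2 fold changes of the members in the thalamus. For no thalamic member were the groups separate, 0 of 7, against 5.40% of all genes tested.

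Egr2 was close to absent from the thalamus and was not tested there, because it did not pass the filter on low counts. It had 7, 1, 0, 2 and 3 counts in sham rats 1 to 5 and 1, 18, 15, 10 and 9 counts in TBI rats 6 to 10. The sums were 13 counts (95% exact Poisson interval 6.92 to 22.2) in sham and 53 counts (39.7 to 69.3) after TBI, at total depths of 132331957 and 130615334 counts, and the intervals cover counting error only. TBI rats 7 to 10 each lay above all sham rats, and rat 6 lay among them. DESeq2, which kept the gene, gave a log2 fold change of 2.12 (SE 0.80, adjusted p = 0.0640), and edgeR without the filter 2.02 (adjusted p = 0.124).

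In the hippocampus, no member passed the test, and 0% of the 16963 genes tested were called by edgeR. Unadjusted p was under 0.05 for 1432 genes and for 1 member, Nr4a1, and DESeq2 called 46 genes, with no adjusted p for the members after its filtering. Fold changes were above 0 in 7 of 8 members, the exception being Jun, with a median of 0.35 over the members and -0.01 over all genes tested. The members' median was 0.15 without TBI rat 10 (6 of 8 above 0), 0.23 without sham rat 2 and 0.20 on flow cell FC120, against 0.34 without sham rats 4 and 5 and 0.49 without rats 3 and 8.

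Nr4a1 was measured at 18.8, 11.7, 21.5, 17.7 and 20.1 CPM in the sham hippocampus. It was measured at 22.5, 19.5, 22.7, 25.2 and 35.7 CPM in the TBI hippocampus. TBI rat 7 lay within the sham range and the other 4 TBI rats lay above it, with rat 10 far above. For this gene the log2 fold change was 0.49 (SE 0.18, edgeR unadjusted p = 0.0196, adjusted p = 0.509). It was 0.54 without sham rats 4 and 5 (adjusted p = 0.850), 0.60 without rats 3 and 8 (adjusted p = 0.238) and 0.41 on flow cell FC120 alone (adjusted p = 0.890).

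TBI rat 10 was the highest injured rat in the hippocampus for 7 of 8 members and lay above all sham rats for those 7, and rat 9 lay above all sham rats for 6. Fos was measured at 2.60, 1.93, 5.60, 3.94 and 5.64 CPM in sham and at 5.22, 4.46, 3.23, 5.62 and 8.06 CPM after TBI. Sham rats 1 and 2 were low and TBI rat 10 was high, and the others overlapped. Its log2 fold change was 0.46 (SE 0.32, edgeR adjusted p = 0.751), 0.66 without sham rats 4 and 5 (adjusted p = 0.850) and 0.79 without rats 3 and 8 (adjusted p = 0.302). It was lower, at 0.25 without TBI rat 10, 0.27 without sham rat 2 and 0.27 on flow cell FC120.

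Arc ranged from 29.5 to 58.5 CPM (median 47.4) in the sham hippocampus and from 38.1 to 80.2 CPM (median 50.3) after TBI, with a log2 fold change of 0.32 (SE 0.24, edgeR adjusted p = 0.769). Junb ranged from 11.2 to 20.5 CPM in sham and from 15.5 to 28.4 CPM after TBI (log2 fold change 0.33, SE 0.19, adjusted p = 0.686). Dusp1 ranged from 5.35 to 8.40 CPM in sham and from 5.39 to 13.8 CPM after TBI (0.38, SE 0.25, adjusted p = 0.741). These 3 genes overlapped between the groups, and their highest TBI library was rat 10 in each. Without rat 10 the log2 fold changes of Arc, Junb and Dusp1 were 0.14, 0.17 and 0.15. Without sham rats 4 and 5 they were 0.28, 0.46 and 0.40, and without rats 3 and 8 they were 0.48, 0.45 and 0.51.

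Egr1, the member called lower in the cortex, was measured at 41.5, 30.6, 47.0, 45.9 and 51.6 CPM in the sham hippocampus and at 38.8, 36.2, 41.5, 56.1 and 56.8 CPM in the TBI hippocampus. edgeR gave a log2 fold change of 0.09 (SE 0.16, edgeR adjusted p = 0.913), with TBI rats 9 and 10 above the sham range and the others inside it. Jun had a log2 fold change of -0.03 (SE 0.12, adjusted p = 0.971) and Egr2, with 4 to 26 counts per sham library and 5 to 40 per TBI library, one of 0.40 (SE 0.47, adjusted p = 0.850). Single rats moved Egr2 from 0.088 (without TBI rat 10) to 0.86 (without sham rat 3). Without sham rats 4 and 5, Egr1 was at 0.21, Jun at 0.023 and Egr2 at 0.17, and without rats 3 and 8 they were at 0.15, -0.037 and 0.88, none of them past the threshold. The groups were separate for 0 of 8 members, against 0.984% of all genes tested.

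**Figure D2:**
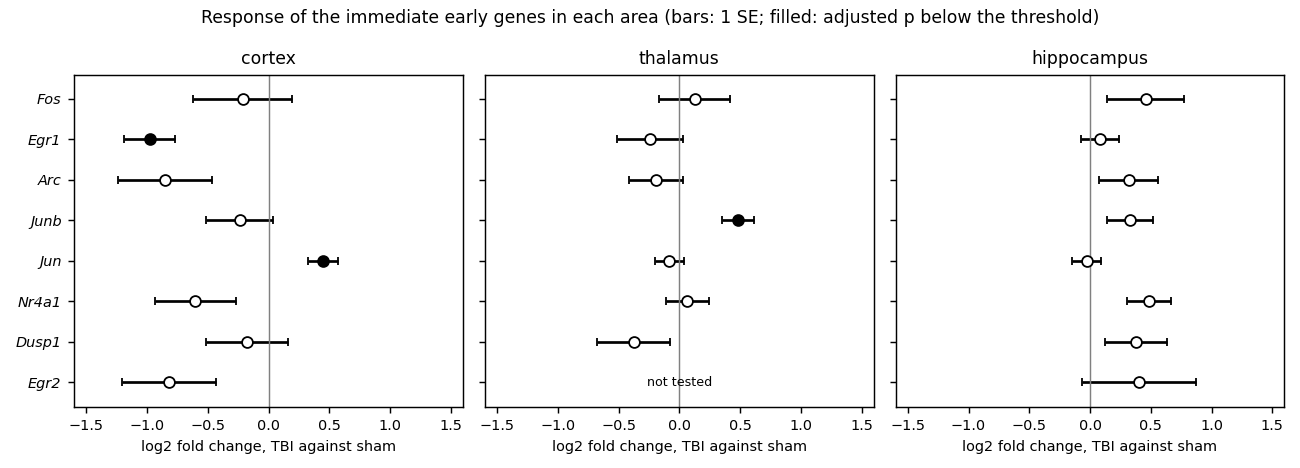
Log2 fold change of TBI against sham (horizontal axis) for each member (rows) in each brain area, with bars of 1 SE from the edgeR fit (n = 5 rats per group) and filled points where the adjusted p was under 0.05. The filled points are Egr1 (-0.98) and Jun (0.45) in the cortex and Junb (0.48) in the thalamus, and Egr2 was not tested in the thalamus.

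An interaction term asked whether the injury response of a gene differed from area to area. Like the fit of all areas above, its main fit took the areas of a rat as independent libraries. The fit with the rat as a replicate block did not. Egr1 responded differently in cortex and hippocampus, with a difference of 1.10 on the log2 scale (SE 0.28, edgeR adjusted p = 0.0392), the hippocampal response lying above the cortical one. This was 1 of 8 members, where 3.04% of the 17688 genes tested were called. With each rat left out the difference was between 0.96 and 1.18, and the adjusted p was between 0.0143 and 0.123, under the threshold in 2 of 10 fits (without sham rat 5 and without TBI rat 10). It was 1.23 (adjusted p = 0.0600) without sham rats 4 and 5 and 1.13 (adjusted p = 0.107) without rats 3 and 8, and in the fit without the filter on low counts the adjusted p was 0.0772, so none of these 3 passed the threshold. With the rat as a replicate block, 5.92% of the genes tested were called and 3 of 8 members passed: Egr1 with 1.13 (adjusted p = 0.000637), Arc with 1.38 (adjusted p = 0.00925) and Nr4a1 with 1.19 (adjusted p = 0.0112). Without the block, Arc had a difference of 1.21 (SE 0.47, adjusted p = 0.172) and Nr4a1 of 1.12 (SE 0.40, adjusted p = 0.136).

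Between cortex and thalamus, 0 of 8 members passed, and 0.440% of the 17745 genes tested were called. The smallest unadjusted p belonged to Egr2 (difference 2.78, SE 0.83, edgeR adjusted p = 0.183), which rests on the few thalamic counts given above, and to Jun (-0.58, SE 0.18, adjusted p = 0.204), whose cortical response lay above its thalamic response. For Junb, the thalamic response lay 0.67 above the cortical one (SE 0.29, adjusted p = 0.448). The call of Junb in the thalamus and not in the cortex was thus not matched by a tested difference between these areas. Between thalamus and hippocampus, 0 of 8 members and 0% of the 17617 genes tested passed in edgeR, with an unadjusted p under 0.05 for 2356 genes and 0 members, and 0 genes passed with the replicate block. DESeq2 was not run on the interactions.

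The sham rats give the order of each gene over the areas without injury. On a scale common to the 30 libraries, Egr1 had 279 ± 51.3 CPM in the cortex, 48.4 ± 8.96 CPM in the hippocampus and 27.1 ± 8.70 CPM in the thalamus (mean ± SD, n = 5). Arc followed the same order, with 224 ± 26.3, 49.1 ± 12.4 and 12.8 ± 3.32 CPM, and Junb as well, with 48.7 ± 12.5, 18.1 ± 4.44 and 12.9 ± 1.08 CPM. Egr2 was 15.4 ± 6.16 CPM in the cortex, 0.480 ± 0.294 CPM in the hippocampus and 0.0828 ± 0.0772 CPM in the thalamus. For Egr1, Arc and Egr2 each neighbouring pair in this order differed past the threshold in edgeR, and this held with each rat left out. For Junb, the step from hippocampus to thalamus (log2 difference 0.45, SE 0.17, adjusted p = 0.0223) was lost without sham rats 4 and 5 (adjusted p = 0.160) and without rats 3 and 8 (adjusted p = 0.0773).

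Jun was lowest in the cortex, with 59.6 ± 8.94 CPM in the hippocampus, 46.7 ± 5.57 CPM in the thalamus and 25.4 ± 4.06 CPM in the cortex. The hippocampal level was 1.24 above the cortical one on the log2 scale (SE 0.14, edgeR adjusted p = 8.53e-08) and the thalamic level 0.90 above it (SE 0.13, adjusted p = 2.31e-06). The hippocampus and thalamus differed by 0.33 (SE 0.12, adjusted p = 0.0256), which was not past the threshold with the replicate block (adjusted p = 0.0595), without sham rats 4 and 5 (0.110) or without rats 3 and 8 (0.0679).

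Fos and Dusp1 were lowest in the hippocampus. Fos was 31.8 ± 10.8 CPM in the cortex, 17.1 ± 7.25 CPM in the thalamus and 4.40 ± 1.89 CPM in the hippocampus, and the step from cortex to thalamus was a log2 difference of -0.87 (SE 0.36, edgeR adjusted p = 0.0398), past the threshold in 5 of 10 fits with a rat left out but not without the filter on low counts (adjusted p = 0.0540). With the replicate block it was -0.91 (adjusted p = 0.000486). Dusp1 was 89.1 ± 12.8 CPM in the thalamus, 57.9 ± 13.9 CPM in the cortex and 7.52 ± 1.38 CPM in the hippocampus. Its thalamic and cortical levels did not differ past the threshold (0.64, SE 0.34, adjusted p = 0.0991), but did with the replicate block (0.66, adjusted p = 0.00184). Nr4a1 was 88.2 ± 24.5 CPM in the cortex, 20.04 ± 4.21 CPM in the hippocampus and 15.9 ± 2.60 CPM in the thalamus, and the last pair did not differ past the threshold (0.31, SE 0.19, adjusted p = 0.146) except with the replicate block (adjusted p = 0.0238).

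Between cortex and thalamus, 6 of 8 members were called higher in the cortex, against 33.3% of all genes tested, and 1 higher in the thalamus, against 36.2%. Between cortex and hippocampus, 7 of 8 were called higher in the cortex, against 25.0%, and 1 higher in the hippocampus, against 27.7%. Between thalamus and hippocampus, 5 of 8 were called higher in the hippocampus, against 33.1%, and 2 higher in the thalamus, against 33.8%. The study's methods name another instrument for the thalamic libraries than for the rest, whereas the sample labels name the same one for all. If they differed, instrument and area cannot be told apart in these levels.

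Between rats of the same group, 17 of 28 pairs of members varied together past the threshold in the cortex. This held for 11 of 28 pairs in the hippocampus and 5 of 21 in the thalamus. To keep the difference between the groups out, log2 CPM was centred on the mean of each treatment group, and Pearson's r was computed over the 10 rats for each pair of members in each area, with exact permutation of the rats within groups and adjustment over the 77 pairs. In the cortex the median r of the 28 pairs was 0.833, all 28 were above 0, and 17 passed an adjusted permutation p of 0.05. Over all pairs of the 17185 genes tested in the cortex the median r was -0.003, and 1.62% of pairs exceeded 0.8, against 19 of 28 pairs of members. The closest pair was Fos with Dusp1 (r = 0.974, Spearman's rho 0.903, adjusted exact permutation p = 0.00535), and r was 0.950 without rats 7 and 10, which lay farthest from the median. Fos with Junb (r = 0.966, rho 0.915, adjusted exact p = 0.00891), Junb with Dusp1 (r = 0.946, rho 0.915, adjusted exact p = 0.00917) and Arc with Nr4a1 (r = 0.922, rho 0.939, adjusted exact p = 0.00802) followed.

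Jun was the cortical member that followed the others least. Its r with the mean of the other members was 0.556, against 0.856 to 0.965 for the other 7, and 0 of its 7 pairs passed the adjusted threshold. Leaving out rat 10 lowered the median r of the cortical pairs to 0.751, and 9 pairs exceeded 0.8. Without the 2 rats farthest from the median of the first gene of each pair, it was 0.705, and 10 pairs exceeded 0.8. In both, 28 of 28 pairs were still above 0.

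**Figure D3:**
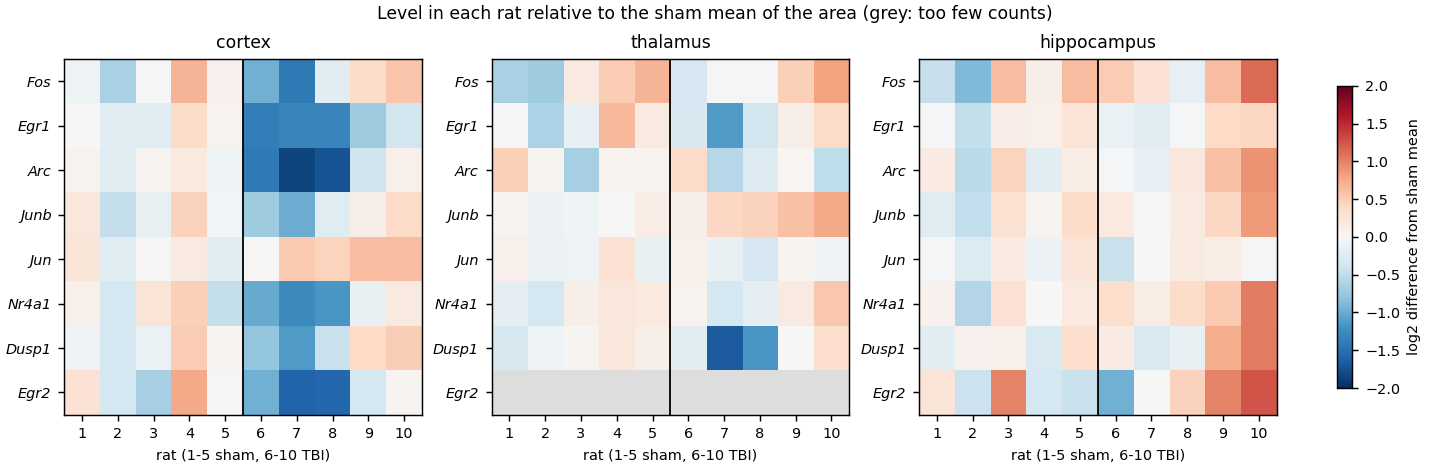
Level of each member (rows) in each rat (columns, 1 to 5 sham and 6 to 10 TBI) as the log2 difference from the sham mean of that area, where red is higher and blue lower, and grey marks Egr2 in the thalamus, which had too few counts. TBI rats 6, 7 and 8 are blue for most members in the cortex, Jun is the exception, and TBI rat 10 is red for 7 of 8 members in the hippocampus.

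In the thalamus the median r of the 21 pairs was 0.488, 17 were above 0, and 5 passed the adjusted exact permutation threshold (all pairs of genes: median -0.003, 2.06% above 0.8; members: 3 of 21 above 0.8). The closest pairs were Egr1 with Nr4a1 (r = 0.883, rho 0.891, adjusted exact p = 0.0160), Nr4a1 with Dusp1 (r = 0.861, rho 0.830, adjusted exact p = 0.0107) and Fos with Nr4a1 (r = 0.804, rho 0.806, adjusted exact p = 0.0299). Without the 2 rats farthest from the median of the first gene of each pair, these were 0.860, 0.925 and 0.761. Without TBI rat 10, the median r of the thalamic pairs was 0.441, and 1 of 21 exceeded 0.8. Arc stood apart from the group in the thalamus, with r = -0.004 against the mean of the other members and r of -0.393 with Fos (rho -0.224), -0.270 with Junb (rho -0.018) and -0.101 with Nr4a1 (rho 0.127), none of them past the threshold. Its r was 0.515 with Jun, 0.185 with Egr1 and 0.167 with Dusp1, also not past it. Arc followed the others in the cortex (r = 0.909 with their mean) and in the hippocampus (0.949), and whether these correlations differ between areas was not tested.

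In the hippocampus the median r of the 28 pairs was 0.639, 28 of 28 were above 0, and 11 passed the adjusted exact permutation threshold (all pairs of genes: median -0.002, 0.957% above 0.8; members: 10 of 28 above 0.8). The closest pairs were Arc with Nr4a1 (r = 0.925, rho 0.939, adjusted exact p = 0.00535), Junb with Nr4a1 (r = 0.917, rho 0.855, adjusted exact p = 0.00891), Fos with Junb (r = 0.915, rho 0.952, adjusted exact p = 0.0107) and Egr1 with Junb (r = 0.909, rho 0.915, adjusted exact p = 0.00535). The median was 0.752 without sham rats 4 and 5, 0.655 without rats 3 and 8 and 0.639 within flow cell FC120. An exact permutation p adjusted over 28 pairs was passed by 8, 7 and 0 pairs in these, in that order, and the 7 libraries of FC120 allow few arrangements. Without sham rats 4 and 5 and TBI rat 10, also 7 libraries, the median was 0.666 and 0 pairs passed. Jun again had the lowest r with the mean of the others, 0.546. Without TBI rat 10 alone, the median r of the hippocampal pairs was 0.591, and 6 of 28 exceeded 0.8.

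**Figure D4:**
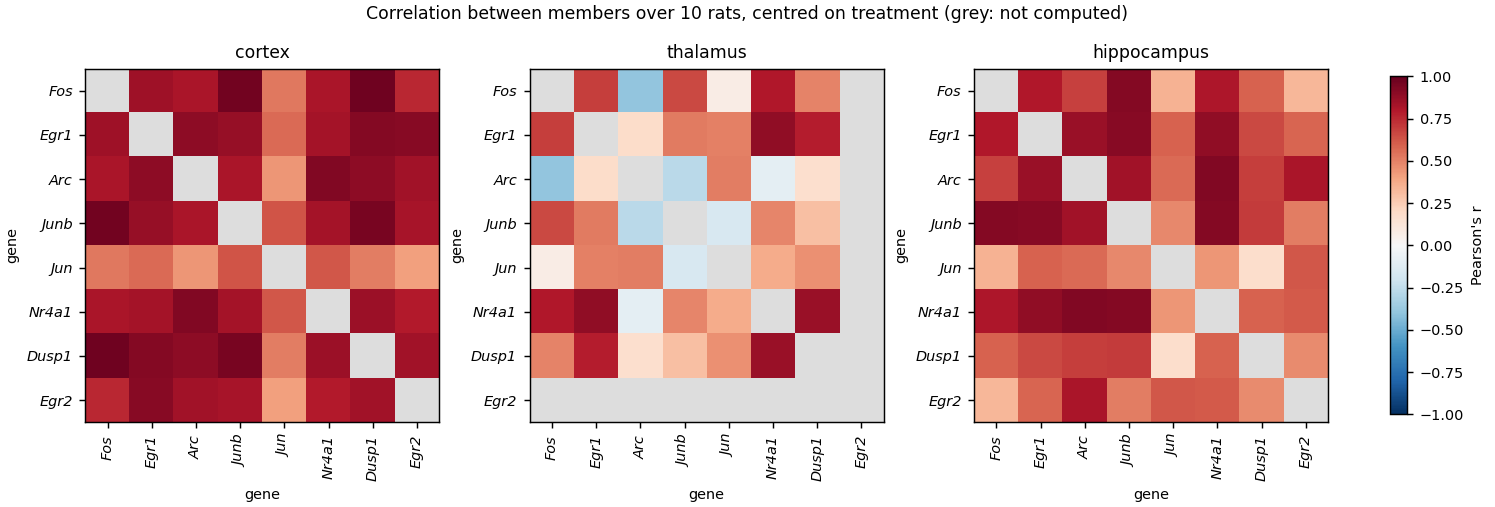
Pearson's r between each pair of members (rows and columns) over 10 rats in each area, from log2 CPM centred on the treatment group, on a colour scale from -1 (blue) to 1 (red). The cortex is dark red apart from the row of Jun, the thalamus holds blue cells in the row of Arc and for Junb with Jun, and grey cells (the diagonal, and Egr2 in the thalamus) were not computed.

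The total count and the share held by the 10 leading genes were set against the mean log2 CPM of the members in each area, both centred on treatment. Over these 6 relations (10 rats each), r lay between -0.568 (total count in the thalamus, rho -0.527, exact permutation p = 0.161) and 0.337 (total count in the cortex, rho 0.127, exact permutation p = 0.338), and the adjusted p was at least 0.673. Without the 2 rats farthest from the median, these 2 values of r were -0.367 and 0.468, and that of the share held by the 10 leading genes in the thalamus rose from 0.129 to 0.503, the highest of the 6. The part of depth and library composition in the members' levels was not tested further.

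No relation of a member with itself between areas passed the adjustment. Over the 22 relations of a member with itself in 2 areas of the same rat, centred on treatment, the smallest adjusted exact permutation p was 0.0560. The median r was 0.717 between cortex and thalamus (6 of 7 members above 0), 0.647 between cortex and hippocampus (8 of 8) and 0.821 between thalamus and hippocampus (5 of 7). Without the 2 rats farthest from the median for each member, these medians were 0.673 (7 of 7), 0.360 (6 of 8) and 0.652 (6 of 7). Between cortex and hippocampus, r then turned from 0.438 to -0.794 for Jun (without rats 2 and 6) and from 0.687 to -0.233 for Dusp1 (without rats 9 and 10), so these relations rest on those rats. Without sham rats 4 and 5 the median was 0.764 between cortex and hippocampus and 0.813 between thalamus and hippocampus, and without rats 3 and 8 it was 0.691 and 0.807. Egr2 had r = 0.200 between cortex and hippocampus, and 0.619 without rats 3 and 8. Egr1 had r = 0.825 between cortex and thalamus (rho 0.782, exact p = 0.00674), 0.743 between cortex and hippocampus (rho 0.721, exact p = 0.0324) and 0.824 between thalamus and hippocampus (rho 0.745, exact p = 0.00764). These were 0.673, 0.724 and 0.927 without the 2 rats farthest from the median.

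Nr4a1 had r = 0.848 between thalamus and hippocampus (rho 0.745, exact permutation p = 0.00368, 0.747 without the 2 farthest rats). Jun and Arc were the members with values below 0, both between thalamus and hippocampus (r = -0.500, exact p = 0.174, and r = -0.286, exact p = 0.440), and Arc also between cortex and thalamus (r = -0.040, exact p = 0.909). The mean of the members was lowest of all injured rats in TBI rat 7 in the cortex and thalamus, 1.13 and 0.50 below the sham mean on the log2 scale. Of the injured rats, TBI rat 10 had the highest mean in all 3 areas, 0.25, 0.32 and 0.82 above the sham mean of the cortex, thalamus and hippocampus. In the cortex sham rat 4 stood higher, 0.45 above the sham mean.

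**Figure D5:**
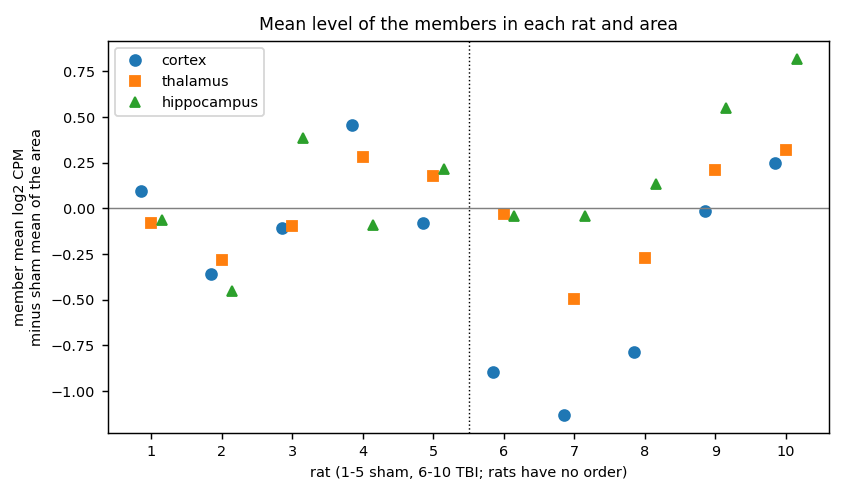
Mean log2 CPM of the members in each rat (horizontal axis, 1 to 5 sham and 6 to 10 TBI, rats have no order) minus the sham mean of the area (vertical axis), with 1 symbol per area and 7 members in the thalamus, 8 elsewhere. TBI rats 6, 7 and 8 stand at -0.90, -1.13 and -0.78 in the cortex, and TBI rat 10 is the highest injured rat in all 3 areas.

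Genes with the most similar profile were sought among 14376 genes with at least 1 CPM on average in each area, by Pearson's r with the mean of the members over the 30 libraries, each centred on its area and treatment group. The median r over these genes was 0.0157, and 9 exceeded 0.7, of which 6 were members and 3 were not. Junb, Nr4a1, Egr1 and Fos took ranks 1 to 4, Dusp1 and Arc ranks 6 and 7, and Jun rank 41, where each member is part of the mean. Egr2 was below the limit and has no rank, but it is part of the mean in each area, its few thalamic counts included. The genes outside the list with the highest values were ENSRNOG00000047811 (r = 0.822, with 0.896, 0.561 and 0.828 within the cortex, thalamus and hippocampus) and ENSRNOG00000020009 (r = 0.735, with 0.828, 0.466 and 0.945). The libraries share depth and sample quality, so these values are a description.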

How the data were processed

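mRNA from 3 brain areas of 10 rats gave 30 libraries, mapped to treatment, area and rat by the sample labels. According to the submitters' processing notes, the authors aligned the reads with STAR to Rnor_5.0 and used R 3.1.0 and DESeq2. The values deposited by the authors are raw counts for each Ensembl gene, in 1 table per area. The counting tool and its use of strand are not given in the sources used here, so reads of overlapping or antisense genes may be included. Column names gave the sample of every column, and 0 columns were set aside.

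The members and lists were chosen with earlier results of these data known. Software was edgeR 4.0.16 with limma 3.58.1, and DESeq2 1.42.0, in R 4.3.3, besides SciPy 1.17.1 and NumPy 2.4.6 in Python 3.11.15. The filter was filterByExpr with a minimum count of 10 and a minimum of 15 in total, the scaling was TMM, and the robust quasi-likelihood test of edgeR, adjusted by Benjamini-Hochberg over all genes (threshold 0.05), compared TBI with sham in each area, and areas and their responses in fits of 2 areas. The SE is the log2 fold change divided by the square root of F. Correlations used log2 CPM with a prior count of 3 and two-sided exact permutation over the 14400 arrangements of rats within groups. The edgeR tests of TBI against sham and of the interaction were tried on simulated counts of independent libraries. The correlations and their permutation were not tried on simulated data. Rats are separate animals, and no 2 libraries of a group were duplicates (chi-square per degree of freedom 15.1 or more).

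The alternatives were RLE size factors, no filter, DESeq2, 1 fit for all areas, each rat left out, hippocampal libraries left out, the rat as a block, Spearman's rho and a prior count of 1. The fit on flow cell FC120, DESeq2 without sham rats 4 and 5, and the joint variation on FC120 or also without TBI rat 10 were chosen after seeing the data. The same rats gave all areas, so the rat pairs the libraries. Deviations from the group mean correlated over all genes, on average for the same animal, with r = 0.0578 (cortex, thalamus), 0.110 (cortex, hippocampus) and 0.0376 (thalamus, hippocampus). Single animals ranged from -0.112 to 0.255, from -0.0347 to 0.367 and from -0.200 to 0.255. Different animals were not compared in this way.

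All 8 members were to be named, with the 10 genes most like them and the leading genes of a list of 52 other immediate early genes. The table of names used here matched 0 of the identifiers, so the 11 lists of symbols, cell type markers included, were not analysed here, and at most 2 identifiers outside the members are printed.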

Additional observations from a re-analysis of the deposited data

Results flagged for a closer look

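The response of Egr1 to TBI differed between the cortex and the hippocampus by the test of the interaction, with a difference of 1.10 on the log2 scale (edgeR adjusted p = 0.0392). The log2 fold change was -0.98 in the cortex, where 5 of 5 TBI rats lay below all sham rats, and 0.09 in the hippocampus, where 2 of 5 lay above them. In the hippocampus, sham rats 4 and 5 had over 40% of their counts in 10 genes, and without them the difference was 1.23 (edgeR adjusted p = 0.0600). The call was also lost without rats 3 and 8 (adjusted p = 0.107), without the filter on low counts (adjusted p = 0.0772) and in 8 of 10 fits that omitted 1 rat (adjusted p up to 0.123). It was kept with RLE size factors (1.10, adjusted p = 0.0384) and with the rat as a replicate block (1.13, adjusted p = 0.000637). Of the 48 groups of 5 values (8 members, 3 areas, 2 treatments), 0 held a library that stood apart from the other 4 by Dixon's criterion, which chance passes in about 1 of 20 groups.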

How the results depend on the processing

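In the cortex, Egr1 and Jun kept their direction and call under RLE size factors, no filter, DESeq2, 1 fit for all areas and with each rat left out, and 2 to 4 members were called with a rat left out. The thalamic gene count of 934 was 1950 with DESeq2, 3457 in 1 fit and 0 to 2421 with a rat left out (0 without rats 3, 5, 7 or 8, 2421 without rat 6). Members called there were 0 without the filter, 0 in 1 fit and 0 to 1 with a rat left out. The hippocampal gene count of 0 was 46 with DESeq2, 263 without rats 3 and 8, 1 in DESeq2 without sham rats 4 and 5 (an alternative chosen after seeing the data) and 0 to 1 with a rat left out.

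With the rat as a replicate block, the genes whose response differed numbered 49 between cortex and thalamus (78 without the block, 49 without the filter, 35 to 110 with a rat left out) and 1048 between cortex and hippocampus (537 without the block, 272 without sham rats 4 and 5, 126 without rats 3 and 8, 117 to 763 with a rat left out). Members called between cortex and hippocampus were 3 with the block, 0 without the filter, 0 without sham rats 4 and 5, 0 without rats 3 and 8 and 0 to 1 with a rat left out. Between thalamus and hippocampus, 0 to 849 genes were called with a rat left out.

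Directions that turned belonged to members not called. The log2 fold change of hippocampal Jun was 0.023 without sham rats 4 and 5, 0.023 in DESeq2 without them and 0.057 on flow cell FC120, and that of hippocampal Egr2 was -0.038 on FC120. The thalamus-hippocampus difference of Junb was 0.013 without sham rats 4 and 5 and 0.013 without rats 3 and 8. With a rat left out, Fos ranged from -0.46 to 0.0071 in the cortex and from -0.058 to 0.31 in the thalamus, thalamic Nr4a1 from -0.074 to 0.16, hippocampal Egr1 from -0.018 to 0.16, hippocampal Jun from -0.092 to 0.064, and the thalamus-hippocampus difference of Jun from -0.028 to 0.22. The median r was 0.705 in the cortex without the 2 farthest rats of each pair and 0.752 in the hippocampus without sham rats 4 and 5. The cause of these shifts was not tested. The values of Egr2 in the thalamus and hippocampus are limited by its few counts there.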
